A study of Mus musculus with 23 samples.

Results

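The colonic epithelium of mice that had been moved from a high-fat to a low-fat diet (HF-LF) was compared with that of mice kept on the high-fat diet (HF). The question was which genes differ after a switch to less dietary fat. The comparison holds the 15 samples that the labels assign to these diets, 9 HF-LF and 6 HF, out of 23 samples in all, and the other 8, from mice kept on the low-fat diet (LF), served as a reference. All mice were male, C57BL/6 by their labels and C57BL/6J in the study's methods, and 6 weeks old when the diets began. HF mice ate a diet with 60% fat for 43 weeks, HF-LF mice ate the same diet for 15 weeks and then a diet with 10% fat for 28 weeks, and LF mice ate the 10% diet for all 43 weeks. No group carried a transgene or received a drug, and the fat of both diets was lard. The study treats the switch as weight loss, and since no body weights are used here, present diet and body weight cannot be told apart. By their labels the samples form 2 batches, of which batch 1 holds 3 HF and 4 HF-LF samples and batch 2 holds 3 HF and 5 HF-LF samples. Epithelium was released from the whole colon with EDTA, and total RNA was sequenced after removal of ribosomal RNA. The methods give fewer mice per regimen than there are samples here, so some samples may come from the same mouse, and p-values measure the spread between these samples.

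The epithelium of the colon is a single layer of cells that is renewed from stem cells at the base of the crypts. Colonocytes absorb water, salts and short-chain fatty acids, goblet cells secrete mucus, and scattered enteroendocrine cells release hormones that respond to what is eaten. Dietary fat reaches these cells as fatty acids, which activate the nuclear receptors of the PPAR family, and as sterols, which act through LXR and SREBP, the regulators of cholesterol export and of lipid synthesis. Growth signals, stretch and stress are read out within minutes by primary response genes, many of which are driven by serum response factor (SRF), and the feedback regulators among them switch the signals off again.

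The 15 samples held 31816330 to 65320947 counted reads each, so that 3 counts correspond to 0.0459 to 0.0943 CPM (reads of a gene relative to all counted reads, scaled by TMM factors, the unit of every level below). Such a floor covers counting error only. Of 24917 loci, 14385 passed the filter on low counts and were tested. The summed epithelial markers (Epcam, Cdh1, Krt8, Krt18, Krt19, Krt20, Vil1 and Cdx2) overlapped between HF and HF-LF samples (12050 to 16816 CPM), and 7 of the 8 erythrocyte marker loci were at 0 in every HF and HF-LF sample. The sample HF 3 of batch 1 stood apart on the second principal component (-50.5, against -18.3 to 18.3 in the other HF and HF-LF samples), and results that rest on it are given with and without it. All 51 pairs of samples that were checked for duplicates differed by more than sampling noise.

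Many genes differed between HF-LF and HF samples, most of them by little. With batch as a covariate, 783 genes were higher and 705 lower in HF-LF than in HF samples with a change of over 1.2-fold and an adjusted p below 0.05 (edgeR quasi-likelihood F test, Benjamini-Hochberg adjustment), which is 10.3% of the genes tested, 5.44% higher and 4.90% lower. Of these DEGs, 159 of the higher and 99 of the lower genes changed by more than 1.5-fold, and 32 and 22 by more than 2-fold. In 310 genes (2.16% of those tested) HF and HF-LF samples did not overlap in either batch and differed in the same direction, among them 103 of the 783 higher and 79 of the 705 lower genes. The median log2 fold change was 0.01 over all genes tested, 0.39 over the higher and -0.35 over the lower genes. The edgeR test put 5157 of the 14385 genes at an unadjusted p under 0.05, 2676 higher and 2481 lower. In other fits, counts of list members at that level are given below without the count over all genes. The number of DEGs rested on single samples: without HF 3 of batch 1 it fell to 501, of which 462 were among the 1488, and without HF 2 of batch 2 to 544, of which 525 were. Leaving out HF 2 of batch 1 raised it to 2669, and leaving out HF 1 of batch 1, HF-LF 2 of batch 1 or HF-LF 1 of batch 2 lowered it to 922, 932 and 981. There were 343 genes (158 higher and 185 lower) that passed both thresholds whichever 1 of the 15 samples was left out.

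Scd1 showed the strongest evidence of all genes. It encodes stearoyl-CoA desaturase, which makes monounsaturated from saturated fatty acids (Entrez 20249, chr19:44394450-44407709 in mm10). In HF samples Scd1 lay between 7.09 and 18.4 CPM with a median of 10.99 CPM, and in HF-LF samples between 20.3 and 60.8 CPM with a median of 28.7 CPM. Every HF-LF sample was above every HF sample, and the LF samples (26.8 to 40.4 CPM, median 32.1) fell within the HF-LF range. The log2 fold change between HF-LF and HF was 1.62 ± 0.18 (SE), a fold of 3.07, with an adjusted p of 5.96e-05. It was 1.85 ± 0.22 in batch 1 and 1.39 ± 0.16 in batch 2. Scd1 was the 1 gene that passed the thresholds in batch 1 alone.

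Other genes of fatty acid synthesis changed in both directions. Of the 25 tested members of the list of fatty acid synthesis and desaturation genes, 2 were higher (Scd1 and Srebf1) and 3 lower (Dgat2, Elovl7 and Agpat2). The shares were 8% and 12%, beside 5.44% higher and 4.90% lower over all genes. The median log2 fold change was 0.11, beside 0.01 over all genes, with 17 of the 25 above 0. Dgat2, which adds the last fatty acid to triglycerides, lay between 82.8 and 123 CPM in HF samples and between 49.6 and 89.1 CPM in HF-LF samples, with medians of 94.9 and 69.5. The groups overlapped in batch 1 and were separate in batch 2, and the log2 fold change was -0.45 ± 0.11 (adjusted p 0.0141). Elovl7, an elongase of long-chain fatty acids, fell by 0.34 ± 0.07 on the log2 scale (adjusted p 0.00778). Agpat2, an acyltransferase of the same route, fell by 0.31 ± 0.10 (adjusted p 0.0397), but its change was -0.21 with an adjusted p of 0.132 without HF 3 of batch 1. Pck1, which makes the glycerol backbone as well as glucose from small precursors, rose by 0.41 ± 0.09 (adjusted p 0.0133).

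Among genes of sterol transport Abca1 and Mylip rose and Scarb1 and Npc1l1 fell. Abca1, the pump that loads cholesterol onto apolipoproteins and a classical LXR target (Entrez 11303, chr4:53030789-53159895), lay between 21.0 and 35.05 CPM in HF samples and between 27.2 and 56.9 CPM in HF-LF samples, with medians of 24.9 and 47.6. One HF-LF sample of batch 1 lay below an HF sample of that batch, and in batch 2 all HF-LF samples were above all HF samples. The log2 fold change of Abca1 was 0.79 ± 0.13 (adjusted p 0.00499). Mylip, the ligase that marks the LDL receptor for degradation and also an LXR target, rose by 0.54 ± 0.12 (adjusted p 0.0138), with no overlap of the groups in either batch.

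Scarb1, the scavenger receptor that takes up cholesterol from HDL (Entrez 20778, chr5:125277087-125341094), was at 19.1 to 24.0 CPM in HF samples and at 13.9 to 19.8 CPM in HF-LF samples. The groups did not overlap in either batch, although they did once the batches were put together. Its change was small but even, -0.34 ± 0.05 on the log2 scale with an adjusted p of 0.000801. Npc1l1, the intestinal cholesterol importer, was at 1.90 CPM (median) in HF and 1.15 CPM in HF-LF samples and fell by 0.69 ± 0.21 (adjusted p 0.0324), with overlap in both batches and an adjusted p of up to 0.0751 without 1 sample (HF 3 of batch 2). Among the 18 sterol transport and lipoprotein genes 2 were higher and 2 lower, at a median of 0.03. Each is 11.1% of the list, beside 5.44% higher and 4.90% lower over all genes.

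Among PPAR receptors and lipid-responsive targets, 4 of 22 tested genes were higher (Lipe, Pnpla2, Ppara and Ppard) and 5 lower (Fabp1, Creb3l3, Angptl4, Mgll and Vnn1), with a median of -0.04. These are 18.2% and 22.7% of the list, beside 5.44% and 4.90% of all genes, and without HF 3 of batch 1 0 were higher and 3 lower by edgeR, with 5 and 6 at an unadjusted p under 0.05. Angptl4, a secreted inhibitor of lipoprotein lipase that fatty acids induce, lay between 4.06 and 9.68 CPM in HF and between 1.33 and 6.77 CPM in HF-LF samples. Within each batch the groups did not overlap, and the log2 fold change was -0.79 ± 0.19 (adjusted p 0.0150). Mgll, which cleaves monoglycerides into glycerol and a fatty acid, fell by 0.67 ± 0.13 (adjusted p 0.00870), from a median of 47.7 CPM to 29.4 CPM, with no overlap in either batch. Creb3l3, a transcription factor of lipid metabolism, fell by 0.86 ± 0.23 (adjusted p 0.0195), and by 0.78 with an adjusted p of 0.0564 without HF 3 of batch 1. Fabp1, a fatty acid binding protein, lay at 0.182 to 0.823 CPM in HF and 0.151 to 0.385 CPM in HF-LF samples, and its adjusted p of 0.0371 rose to 0.130 without HF 2 of batch 2. In the list of 40 fatty acid oxidation genes, 1 was higher and 3 were lower (2.5% and 7.5%, beside 5.44% and 4.90% of all genes), and the median was -0.11. None of these 4 calls was made without HF 3 of batch 1, where 2 genes above 0 and 15 below 0 had an unadjusted p under 0.05. At that level the fit with all samples held 2 higher and 16 lower of the 40, beside 2676 and 2481 of all 14385 genes.

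**Figure D1:**
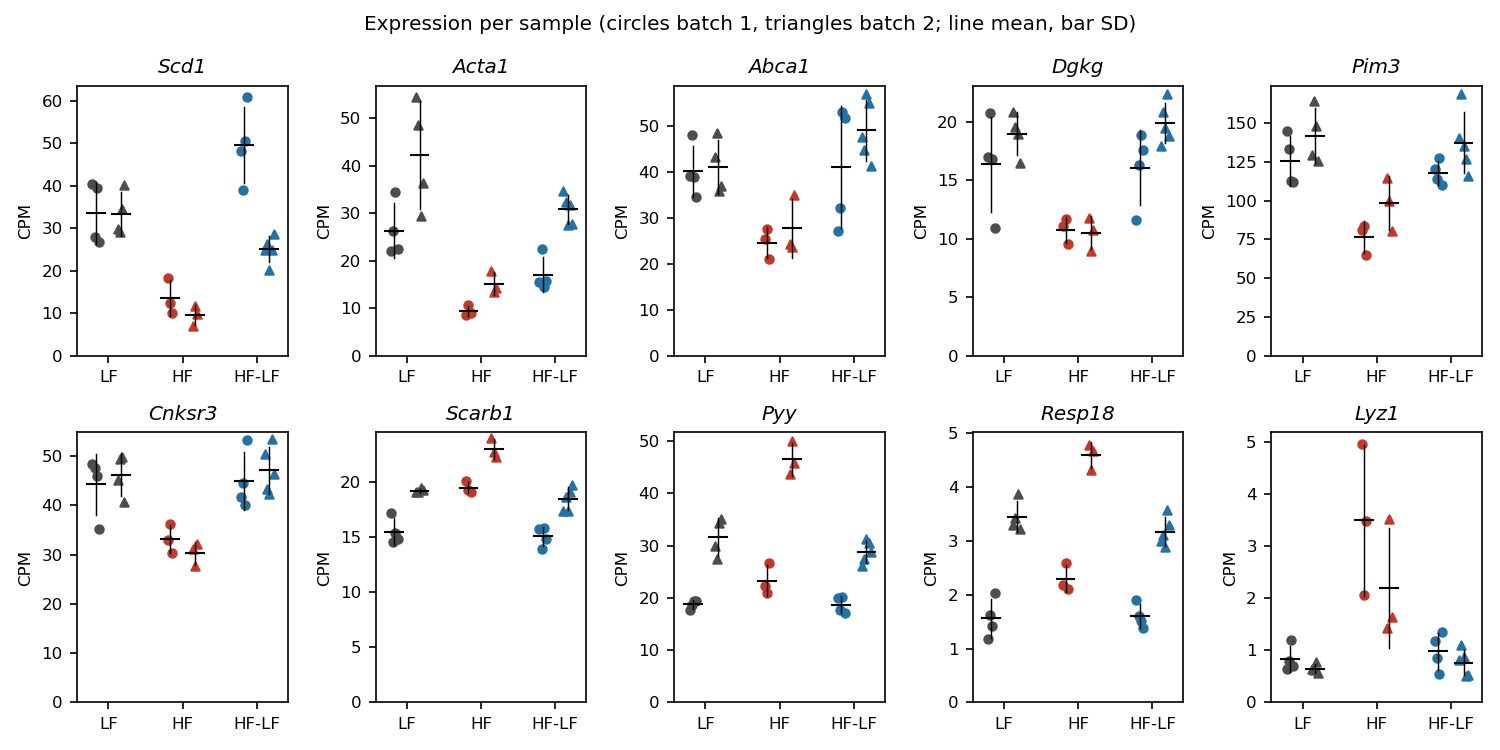
Levels in CPM (vertical axes, from 0) of the 10 genes called between HF-LF and HF with batch alone and also with each of 3 added covariates, in the LF, HF and HF-LF samples. Each point is 1 sample (circles batch 1, triangles batch 2), and lines and bars are the mean and SD of each group within a batch; in Scd1 every HF-LF sample (20.3 CPM or more) lies above every HF sample (18.4 CPM or less), and LF and HF-LF samples share a range in most panels.

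Primary response genes had the largest share of higher genes of any list tested. Of 49 tested members of this list, 25 were higher and 0 lower (51.0%, beside 5.44% of all genes), and the median log2 fold change was 0.38, 0.30 in batch 1 and 0.42 in batch 2. Many of these genes had been named in the study as lower in aged obese mice, so the list is no independent evidence of its direction. Without HF 3 of batch 1 the count was 12 and the median 0.29, and over the samples left out in turn the count ran from 12 to 31. The same genes stood at a median of -0.56 between HF and LF and of -0.19 between HF-LF and LF. These comparisons share samples with each other, and the values are set side by side only.

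Nr4a1, an orphan nuclear receptor induced within minutes by growth signals (Entrez 15370, chr15:101266846-101274794), lay between 39.0 and 152 CPM in HF samples with a median of 78.2, and between 83.0 and 258 CPM in HF-LF samples with a median of 159. In batch 2 all HF-LF samples were above all HF samples, and in batch 1 the ranges overlapped. The log2 fold change of Nr4a1 was 0.97 ± 0.21 (adjusted p 0.0107). Fosb, a subunit of the AP-1 transcription factor, had medians of 289 CPM in HF and 478 CPM in HF-LF samples, with the same pattern of overlap, and rose by 0.81 ± 0.19 (adjusted p 0.0139). Thbs1, a secreted matrix protein and delayed early gene, went from a median of 260 CPM to 550 CPM, a log2 fold change of 0.83 ± 0.16 (adjusted p 0.00778). Egr3, at a median of 1.37 CPM in HF and 2.44 CPM in HF-LF samples, rose by 0.98 ± 0.29 (adjusted p 0.0285), but passed the thresholds in 9 of the 15 fits that left out 1 sample, with an adjusted p of up to 0.0817 (without HF 2 of batch 2).

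The best known immediate early genes changed less. Fos, the partner of Jun in AP-1, lay between 649 and 1738 CPM in HF samples and between 1127 and 2054 CPM in HF-LF samples. All HF-LF samples were above the HF samples in batch 1, in batch 2 the highest HF sample was above the lowest HF-LF sample, and the log2 fold change was 0.39 ± 0.10 (adjusted p 0.0156). Egr1 rose by 0.47 ± 0.13 (adjusted p 0.0198), with medians of 178 CPM in HF and 310 CPM in HF-LF samples and overlap in batch 1, and an adjusted p of 0.0617 without HF 3 of batch 1 and of 0.0686 without HF 2 of batch 2. Klf2, a transcription factor of the same early response, rose by 0.67 ± 0.15 (adjusted p 0.0131), from a median of 14.3 CPM to 22.5 CPM. Jund, by contrast, did not pass the test (0.16 ± 0.09, adjusted p 0.184), at 272 to 369 CPM in HF and 293 to 479 CPM in HF-LF samples. Klf2 and Jund were chosen after their values had been seen.

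Srf itself and an actin gene that it is known to drive rose too. Srf (Entrez 20807, chr17:46546839-46556162) lay between 38.5 and 59.2 CPM in HF samples and between 46.4 and 78.0 CPM in HF-LF samples, with medians of 49.0 and 67.3. In batch 1 one HF sample was above one HF-LF sample, in batch 2 the groups were separate, and the log2 fold change was 0.36 ± 0.08 (adjusted p 0.0104). Acta1, the actin of skeletal muscle (Entrez 11459, chr8:123891758-123894775), lay between 8.65 and 17.9 CPM in HF samples and between 14.6 and 34.6 CPM in HF-LF samples, with medians of 12.1 and 27.6. Within each batch all HF-LF samples were above all HF samples, and the log2 fold change was 0.94 ± 0.13 (adjusted p 0.000801). Of the other 6 skeletal muscle markers, Myh4 was at 0 and Ckm, Tnnc2 and Actn3 were at 0.142 CPM or less in every HF and HF-LF sample. Tnni2 was at 0 to 0.180 CPM in HF and 0.0549 to 0.537 CPM in HF-LF samples, and Mylpf at 0.750 to 1.26 CPM in HF and 0.384 to 0.965 CPM in HF-LF samples. Over the 20 SRF, cofactor and actin cytoskeleton genes, 3 were higher (Acta1, Srf and Zyx) and 1 lower (Tpm4), and the median was 0.12. The shares were 15% and 5%, beside 5.44% higher and 4.90% lower over all genes.

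The promoters of Srf and Acta1 hold the CArG box, the DNA motif that SRF is known to bind in promoters of primary response and actin genes. They are shown with those of Dusp5, a feedback regulator that was also higher, and of Acsm3 and Hist1h2an, which were lower, since these 5 are the called genes of the naming rule that hold a box in the promoters searched. Stretches of the 250 bases before the RefSeq start of each gene (GRCm38.p6) are printed 5′ to 3′ on the strand of the gene, with the CArG boxes in capitals.
Srf (minus strand, chr17:46556190-46556269): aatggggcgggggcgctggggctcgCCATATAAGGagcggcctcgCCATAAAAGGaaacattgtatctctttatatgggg
Acta1 (minus strand, chr8:123894814-123894873): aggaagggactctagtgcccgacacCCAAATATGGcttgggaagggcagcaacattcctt
Dusp5 (plus strand, chr19:53529038-53529107): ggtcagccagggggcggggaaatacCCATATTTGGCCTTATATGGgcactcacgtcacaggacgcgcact
Acsm3 (plus strand, chr7:119760873-119760922): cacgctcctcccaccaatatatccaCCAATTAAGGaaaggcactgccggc
Hist1h2an (minus strand, chr13:21787249-21787308): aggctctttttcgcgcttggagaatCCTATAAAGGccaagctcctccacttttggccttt
Srf and Dusp5 hold 2 boxes each, in Dusp5 end to end, and Acta1, Acsm3 and Hist1h2an hold 1 each. The motif reads the same on both strands, so both were searched at once. Of the 595 higher genes with a promoter among those searched, 16 held a box (2.69%), beside 10 of 596 lower genes (1.68%) and 163 of 11236 tested genes (1.45%). Of the 25 higher primary response genes, 19 had a promoter among those searched, and 2 of these held a box (Srf and Zfp36). The search did not cover all 14385 tested genes, nor bases beyond the 250 before each start, so other called genes may hold a box. A match describes the letters in this window and is not a measured site.

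Some feedback regulators of these signals rose too. Of 30 tested members, 6 were higher (Cish, Dusp4, Dusp5, Nfkbiz, Smad7 and Spry1) and 0 lower (20%, beside 5.44% of all genes), with a median of 0.21. Dusp5, a phosphatase that switches ERK off in the nucleus (Entrez 240672, chr19:53529318-53541322), lay between 7.63 and 10.9 CPM in HF samples and between 8.36 and 20.5 CPM in HF-LF samples. All 5 HF-LF samples of batch 2 were above the HF samples, in batch 1 the groups overlapped, and the log2 fold change was 0.56 ± 0.18 (adjusted p 0.0386). The call for Dusp5 held in 6 of the 15 fits that left out 1 sample, and its adjusted p was 0.0997 without HF 3 of batch 1. Nfkbiz, an inhibitor of NF-κB signaling, rose by 0.43 ± 0.10 (adjusted p 0.0140), from a median of 92.5 CPM to 130 CPM. Cish, which damps JAK/STAT signaling, rose by 0.49 ± 0.15 (adjusted p 0.0281), but by 0.38 with an adjusted p of 0.0871 without HF 3 of batch 1. In that fit 2 of the 30 genes were called, and without HF 2 of batch 2 1 was, at medians of 0.20 and 0.21.

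**Figure D2:**
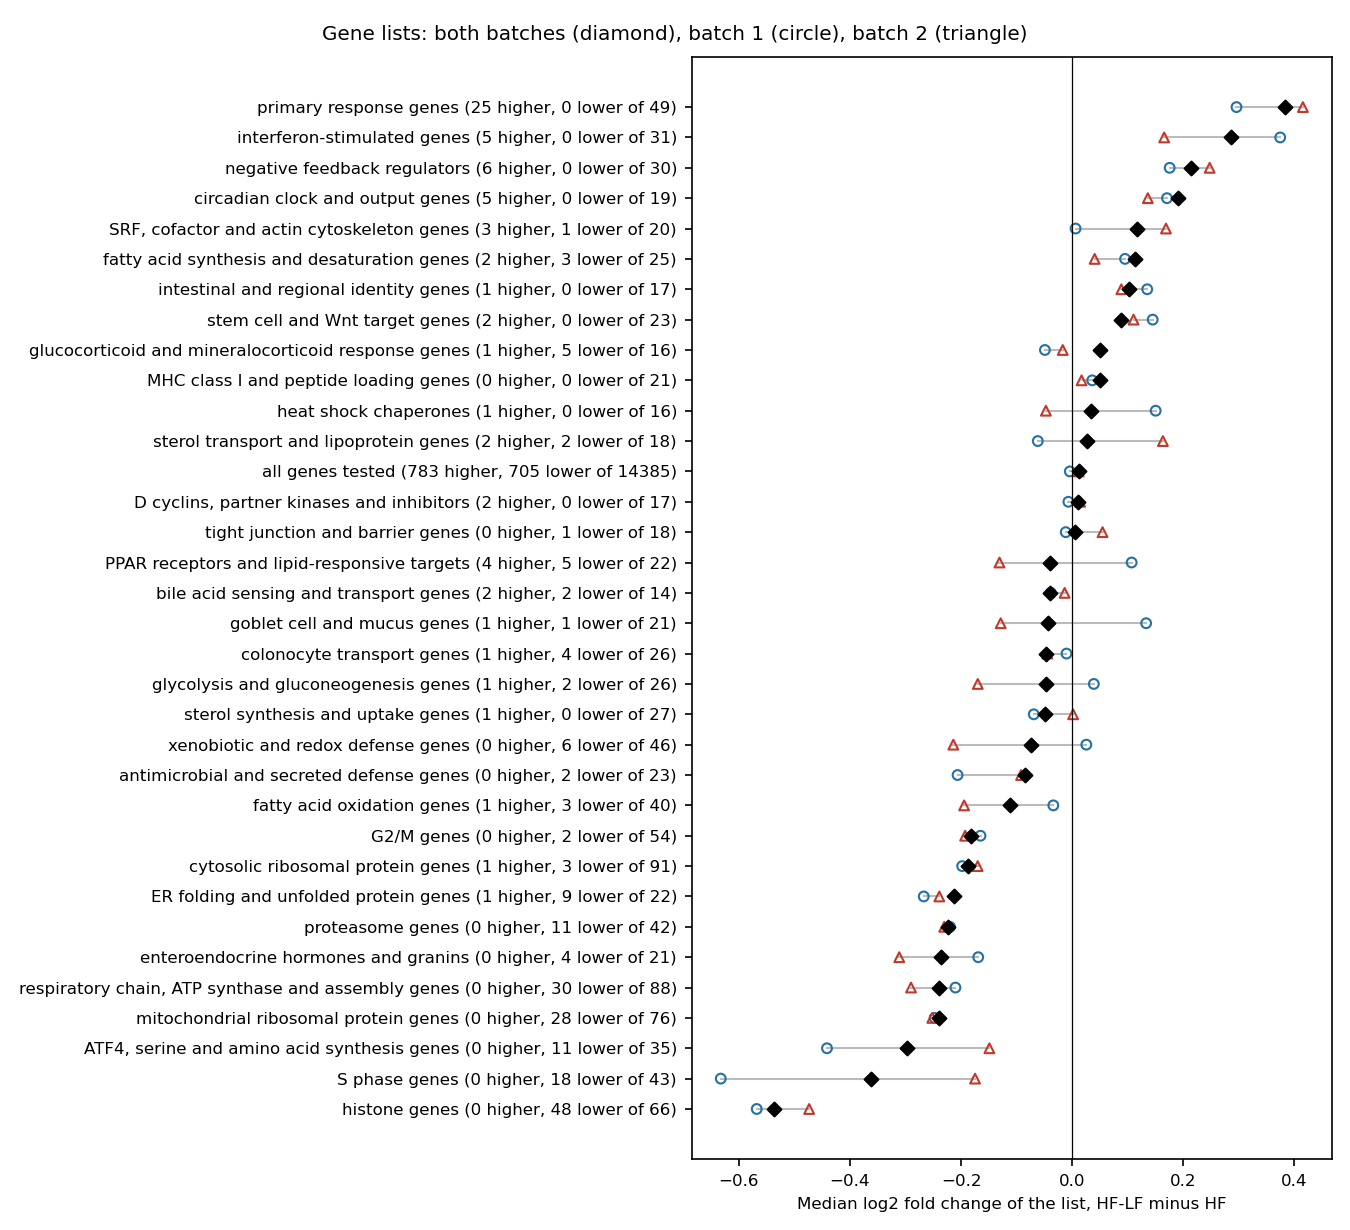
Median log2 fold change between HF-LF and HF of each gene list (horizontal axis), with both batches (diamond), in batch 1 (circle) and in batch 2 (triangle). The cell type marker lists and the short lists of iron handling and MHC class II genes are not shown. Labels give how many of the tested members were called. The median of primary response genes lies at 0.38 and that of histone genes at -0.54, and S phase genes are farther from 0 in batch 1 (-0.63) than in batch 2 (-0.17).

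Many genes of DNA replication were called lower, whereas few genes of mitosis were called, although most members of both lists lay below 0. Of the 43 S phase genes, 18 were lower and 0 higher (beside 4.90% of all genes lower), and the median was -0.36. It was -0.63 in batch 1 and -0.17 in batch 2. Prim1, the catalytic subunit of DNA primase (Entrez 19075, chr10:128015215-128030030), lay between 10.2 and 18.6 CPM in HF samples and between 6.09 and 11.4 CPM in HF-LF samples. The groups overlapped in batch 1 and were separate in batch 2, and the log2 fold change was -0.57 ± 0.13 (adjusted p 0.0138). Mcm2, a subunit of the replicative helicase, fell by 0.42 ± 0.11 (adjusted p 0.0210), with medians of 38.2 CPM in HF and 31.5 CPM in HF-LF samples. Its change was -0.65 in batch 1 and -0.18 in batch 2, and its adjusted p was 0.0597 without HF 3 of batch 1.

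Of the 54 G2/M genes, 2 were lower (Tubb4b and Cks2, 3.70% beside 4.90% of all genes), 0 of them without HF 3 of batch 1, and the median was -0.18. The log2 fold change was below 0 in 48 of the 54. Their median was -0.16 in batch 1 and -0.19 in batch 2, where that of S phase genes was -0.17. Mki67, a general marker of cycling cells, was at 159 to 260 CPM in HF and 126 to 270 CPM in HF-LF samples, with a log2 fold change of -0.10 ± 0.18 (adjusted p 0.713). Ccnd2, a D cyclin, had a log2 fold change of 0.10 ± 0.11 (adjusted p 0.537), -0.17 in batch 1 and 0.36 in batch 2. Cdk6, a kinase that D cyclins activate, rose by 0.43 ± 0.09 (adjusted p 0.00909) from a median of 30.5 CPM to 40.4 CPM. Among 17 D cyclins, partner kinases and inhibitors 2 were higher (Cdk6 and Cdkn2d, 11.8% beside 5.44% of all genes) and 0 lower, at a median of 0.01. Leaving out HF 3 of batch 1, which had the highest level of Prim1 and Mcm2 of the HF samples, left 7 S phase genes called at a median of -0.26.

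Histone genes made up the largest share of lower genes in any list: 48 of 66 tested were lower and 0 higher (72.7% lower, beside 4.90% of all genes). Their median was -0.54 (-0.57 in batch 1 and -0.47 in batch 2). Transcripts of replication-dependent histones lack a poly(A) tail, and libraries made after removal of ribosomal RNA retain them. Hist1h3b, a histone H3 gene of the cluster on chromosome 13 (Entrez 319150, chr13:23752380-23752840), lay between 14.5 and 36.4 CPM in HF samples and between 10.7 and 28.5 CPM in HF-LF samples. The ranges overlapped in both batches, and the log2 fold change was -0.72 ± 0.21 (adjusted p 0.0244). Hist1h3g fell by 0.84 ± 0.23 (adjusted p 0.0222) and Hist1h2an by 0.90 ± 0.24 (adjusted p 0.0195). Their adjusted p, in the order named, were 0.0797, 0.0750 and 0.0653 without HF 3 of batch 1. Histone genes are near-identical copies of each other, so reads can be shared among them and their calls are not independent. The count was 4 without HF 3 of batch 1 and 12 without HF 2 of batch 2, while the median was -0.41 without the former.

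Most calls among genes of amino acid synthesis rested on 1 sample. In the list of ATF4, serine and amino acid synthesis genes, 11 of 35 were lower and 0 higher, at a median of -0.30. The lower share was 31.4%, beside 4.90% of all genes. Chac1, an ATF4 target that degrades glutathione, was at 14.8 CPM in HF 3 of batch 1, between 0.685 and 1.98 CPM in the other 5 HF samples and between 0.332 and 1.09 CPM in HF-LF samples. Its log2 fold change was -2.05 ± 0.51 (adjusted p 0.0164), and -0.76 with an adjusted p of 0.0919 without that sample. Slc7a11, the cystine importer, fell by 1.32 ± 0.34 (adjusted p 0.0187), and by 0.49 with an adjusted p of 0.0664 without it. Mthfd2 and Psat1, enzymes of the folate and serine routes, changed by -1.17 and -1.10 with the sample (adjusted p 0.0222 and 0.0244) and by -0.42 and -0.40 without it (adjusted p 0.0808 and 0.113). Without HF 3 of batch 1, 2 genes of the list were called and the median was -0.14. In batch 2 alone, which lacks that sample, 4 of the 35 were lower and 1 higher, beside 806 and 1278 of 14377 genes. There 27 of the 35 were below 0, at a median of -0.15.

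Among folding enzymes and other unfolded protein genes of the endoplasmic reticulum, 9 of 22 were lower and 1 (Ern2) higher (40.9% lower, beside 4.90% of all genes), with a median of -0.21. The lower genes numbered 6 without HF 3 of batch 1 and 4 without HF 2 of batch 2, at medians of -0.23 and -0.22. Calr, the calcium-binding chaperone calreticulin (Entrez 12317, chr8:84842088-84846931), lay between 471 and 687 CPM in HF samples and between 351 and 528 CPM in HF-LF samples. The groups were separate in batch 2, in batch 1 one HF-LF sample was above the lowest HF sample, and the log2 fold change was -0.39 ± 0.08 (adjusted p 0.00778). Manf, Sec61b and Sdf2l1 fell by 0.39, 0.42 and 0.38 on the log2 scale, and without HF 2 of batch 2 their adjusted p were 0.0606, 0.0690 and 0.0583.

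Nuclear genes of mitochondrial machinery shifted together by small steps. Of 88 genes of the respiratory chain, ATP synthase and their assembly factors, 30 were lower and 0 higher (34.1% lower, beside 4.90% of all genes). In 87 the log2 fold change was below 0, at a median of -0.24. Ndufaf4, an assembly factor of complex I, lay between 35.2 and 46.2 CPM in HF samples and between 25.6 and 34.8 CPM in HF-LF samples. The groups did not overlap, and it fell by 0.39 ± 0.10 (adjusted p 0.0163). Ndufa12 and Uqcrq, subunits of complexes I and III, both fell by 0.40 on the log2 scale (adjusted p 0.0170 and 0.0237, and 0.0511 and 0.0758 without HF 3 of batch 1). Of 76 mitochondrial ribosomal protein genes, 28 were lower (36.8%) at a median of -0.24, and of 42 proteasome genes, 11 were lower (26.2%) at a median of -0.22. Cytosolic ribosomal protein genes had a like median (-0.19), but 3 of 91 were lower (3.30%) and 1 higher (1.10%). Without HF 3 of batch 1, 5 respiratory, 12 mitochondrial ribosomal and 2 proteasome genes were called, at medians of -0.22, -0.23 and -0.19. Over the samples left out in turn the respiratory count ran from 5 to 58 and the mitochondrial ribosomal count from 12 to 43. With a covariate for each sample (the summed smooth muscle markers, 8 of them restricted to muscle, or a slope on transcript length, alternatives chosen after the data had been seen), 0 respiratory genes were called by edgeR, with 7, 33 and 14 lower at an unadjusted p under 0.05. Their medians then were -0.10, -0.15 and -0.09, and those of the mitochondrial ribosomal genes, 0 called, -0.14, -0.18 and -0.10. Over all genes these 3 fits called 11, 182 and 55. The median transcript length was 763 nt for respiratory, 1221 nt for mitochondrial ribosomal, 1399 nt for proteasome and 835 nt for cytosolic ribosomal genes, beside 2613 nt over all genes. Calls over all genes differed with length: under 1000 nt 12.7% were lower and 2.98% higher, and over 4000 nt 1.58% were lower and 9.79% higher. The part of transcript length in these lists was not tested beyond the fit with the length slope.

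**Figure D3:**
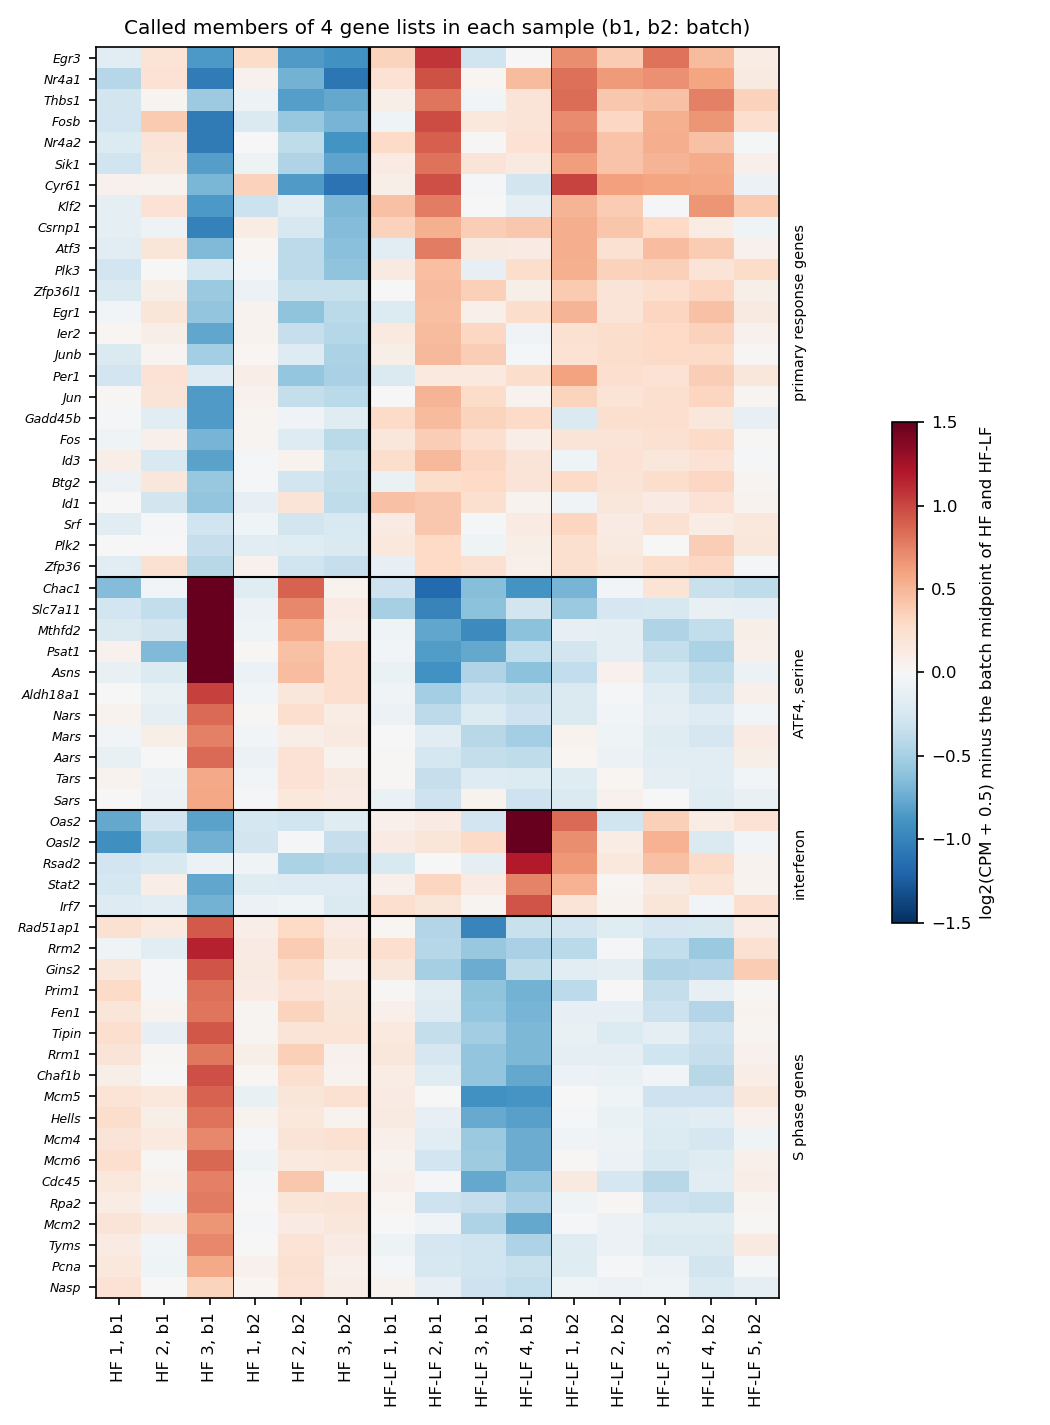
Level of each called member of 4 gene lists in each HF and HF-LF sample, as log2(CPM + 0.5) minus the midpoint of the HF and HF-LF means in that batch, with batches marked b1 and b2. Red is above and blue below that midpoint, values beyond 1.5 share the darkest colour, and HF 3 of batch 1 is the darkest red in the panel of ATF4, serine and amino acid synthesis genes (14.8 CPM of Chac1).

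Some hormone genes of enteroendocrine cells fell, while the general marker of these cells did not pass the test. Of 21 enteroendocrine hormones and granins, 4 were lower (Pyy, Gcg, Insl5 and Tph1) and 0 higher (19.0%, beside 4.90% of all genes), at a median of -0.24 with 6 of 21 above 0. Pyy, peptide YY, which slows gut motility and lowers appetite (Entrez 217212, chr11:102106676-102107776), was at 21.0 to 26.8 CPM in HF and 17.1 to 20.2 CPM in HF-LF samples of batch 1. In batch 2 it was at 43.8 to 50.02 CPM in HF and 26.1 to 31.2 CPM in HF-LF samples. The groups were separate in both batches, and the log2 fold change was -0.52 ± 0.07 (adjusted p 0.000812), -0.33 in batch 1 and -0.69 in batch 2. Gcg, the precursor of GLP-1, fell by 0.48 ± 0.14 (adjusted p 0.0250) with no overlap in either batch, and its adjusted p was 0.0606 without HF 3 of batch 1. Its medians were 39.0 CPM in HF, 28.7 CPM in HF-LF and 23.5 CPM in LF samples. Insl5, a hormone of the distal colon, fell by 0.55 ± 0.14 (adjusted p 0.0155), and Tph1, the first enzyme of serotonin synthesis in the gut, by 0.39 ± 0.11 (adjusted p 0.0234).

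Resp18, a protein of secretory granules in endocrine cells, was chosen after its values had been seen: it fell by 0.53 ± 0.10 (adjusted p 0.00835) from a median of 3.45 CPM to 2.89 CPM, with no overlap within a batch. Chga, the granin that marks enteroendocrine cells, was at 57.9 to 120 CPM in HF and 57.7 to 114 CPM in HF-LF samples, with a log2 fold change of -0.14 ± 0.11 (adjusted p 0.378). Since whole epithelium was sequenced, fewer cells of a type and less RNA per cell cannot be told apart here.

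Lyz1, the lysozyme of Paneth cells, which the colon normally lacks (Entrez 17110, chr10:117287795-117292868), had the strongest fall among genes that passed with every covariate. It lay between 1.43 and 4.96 CPM in HF samples with a median of 2.77, and between 0.509 and 1.36 CPM in HF-LF samples with a median of 0.845. All HF-LF samples were below all HF samples, the LF samples lay at 0.566 to 1.19 CPM, and the log2 fold change was -1.68 ± 0.23 (adjusted p 0.000801). Lyz1 has a close copy, Lyz2, with which reads can be shared. Reg4, a lectin of secretory cells, was at 1033 CPM in HF 2 of batch 2 and between 278 and 458 CPM in the other HF samples, and at 117 to 390 CPM in HF-LF samples. Its log2 fold change was -0.91 ± 0.27 (adjusted p 0.0294), and -0.54 with an adjusted p of 0.140 without HF 2 of batch 2. Guca2b, uroguanylin, which drives salt and water secretion, fell by 0.50 ± 0.09 (adjusted p 0.00499) from a median of 21.7 CPM to 14.5 CPM, with no overlap in either batch. Among 23 antimicrobial and secreted defense genes, Lyz1 and Reg4 were the 2 called (8.70%, beside 4.90% of all genes lower), at a median of -0.08.

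Scnn1g, Scnn1b and Sgk1, which serve sodium uptake and are known to respond to mineralocorticoids, fell. Scnn1g, the gamma subunit of the epithelial sodium channel (Entrez 20278, chr7:121734507-121768477), had the second largest fall of the named genes after Chac1. It lay between 7.57 and 39.2 CPM in HF samples with a median of 17.4, and between 3.73 and 12.2 CPM in HF-LF samples with a median of 5.71. The ranges overlapped in both batches, and HF samples differed more than 2-fold from each other within each batch. The log2 fold change was -1.70 ± 0.33 (adjusted p 0.00778), and the call held in all 15 fits that left out a sample. Scnn1b, the beta subunit, fell by 0.78 ± 0.21 (adjusted p 0.0201), and by 0.58 with an adjusted p of 0.0697 without HF 3 of batch 1. Sgk1, the kinase that keeps the channel at the cell surface, fell by 0.86 ± 0.19 (adjusted p 0.0132), from a median of 370 CPM to 195 CPM. Fkbp5, a chaperone that glucocorticoids induce, fell by 0.64 ± 0.19 (adjusted p 0.0281), but it stood at 547 CPM in HF 3 of batch 1 against 140 to 215 CPM in the other HF samples, and fell by 0.31 with an adjusted p of 0.112 without it. In the list of 16 glucocorticoid and mineralocorticoid response genes, 5 were lower and 1 (Per1) higher at a median of 0.05, with 9 of the 16 above 0. The shares were 31.25% lower and 6.25% higher, beside 4.90% and 5.44% of all genes. The lower genes numbered 2 without HF 3 of batch 1.

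A few interferon-stimulated genes were higher, and their calls rested on single samples. Of 31 tested, 5 were higher (Oas2, Oasl2, Rsad2, Stat2 and Irf7) and 0 lower (16.1%, beside 5.44% of all genes), at a median of 0.29 with 11 of 31 below 0. Oas2, a sensor of double-stranded RNA, was at 13.975 CPM in HF-LF 4 of batch 1, between 0.805 and 2.39 CPM in the other HF-LF samples and between 0.797 and 1.48 CPM in HF samples. Its log2 fold change was 1.47 ± 0.47 (adjusted p 0.0369). It was 0.83 with an adjusted p of 0.0869 without HF-LF 4 of batch 1, and 1.30 with an adjusted p of 0.0995 without HF 3 of batch 1. Oas3 and Ddx60, which the list does not hold, rose by 1.07 ± 0.30 and 1.11 ± 0.28 and were also highest in that sample, at 43.3 and 169 CPM, with adjusted p of 0.0227 and 0.0178 that became 0.0664 and 0.0548 without HF 3 of batch 1. Of the 31 genes, 1 was called without HF 3 of batch 1 and 2 without HF-LF 4 of batch 1, HF 1 of batch 1, HF 2 of batch 2 or HF-LF 1 of batch 2. Hspa1a, a heat shock protein with a near-identical neighbour, Hspa1b, rose by 1.76 ± 0.55 (adjusted p 0.0345), with 2.23 to 9.87 CPM in HF and 3.78 to 53.4 CPM in HF-LF samples and overlap in both batches, and an adjusted p of 0.0853 without HF 3 of batch 1.

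The other named genes with large changes were of varied function. Cxcl12, a chemokine of stromal cells, rose from a median of 0.687 CPM to 1.13 CPM, a log2 fold change of 1.07 ± 0.23 (adjusted p 0.0104). H2-Q10 (1.19 ± 0.30), Fam71a (1.11 ± 0.30) and Kcnh1 (1.10 ± 0.30) also rose, and H2-Q10 belongs to a family of near-identical genes. Complement C3 fell by 1.09 ± 0.33 (adjusted p 0.0323, and up to 0.0710 without HF 1 of batch 2), by 1.46 in batch 1 and 0.64 in batch 2. Aldh1a3, an enzyme of retinoic acid synthesis, fell by 1.26 ± 0.31 and Ly6c1 by 1.34 ± 0.44, and both were highest in HF 3 of batch 1, without which they fell by 0.78 and 0.55 (adjusted p 0.0741 and 0.299). Dgkg, a diacylglycerol kinase, rose by 0.76 ± 0.12 (adjusted p 0.00289) from a median of 10.9 CPM to 18.8 CPM. Cnksr3, a scaffold of MAPK signaling, rose by 0.54 ± 0.08 (adjusted p 0.00155) with no overlap in either batch, and Pim3, a survival kinase, by 0.55 ± 0.09 (adjusted p 0.00499), likewise without overlap. Scgb2b7, a secretoglobin, and Ptplad1, a dehydratase of fatty acid elongation, fell by 1.08 and 0.27 on the log2 scale without overlap.

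Most markers of goblet cells, stem cells and colonocytes did not pass the test. Of 21 goblet cell and mucus genes, 1 (Muc4) was higher and 1 (Klk1) lower (4.76% each, beside 5.44% and 4.90% of all genes), at a median of -0.04. Of 26 colonocyte transport genes, 1 (Slc20a1) was higher and 4 (Slc4a11, Alpi, Guca2b and Sis) were lower, 15.4% beside 4.90% of all genes, at a median of -0.05, and 1 lower gene was called without HF 3 of batch 1. Muc2, the mucin of goblet cells, was at 10482 to 16626 CPM in HF and 12069 to 25229 CPM in HF-LF samples (log2 fold change 0.32 ± 0.16, adjusted p 0.151). Lgr5 and Ascl2, markers of stem cells, had log2 fold changes of 0.13 ± 0.10 and -0.08 ± 0.18 (adjusted p 0.372 and 0.785). Car1, a carbonic anhydrase of colonocytes, stood at -0.04 ± 0.21 (adjusted p 0.907), 0.35 in batch 1 and -0.41 in batch 2. Among stem cell and Wnt target genes, 2 of 23 were higher (8.70%, beside 5.44% of all genes). These were Axin2 (0.36 ± 0.10, adjusted p 0.0227) and Znrf3 (0.28 ± 0.07, adjusted p 0.0169), both of which encode feedback inhibitors of Wnt signaling. Their adjusted p were 0.0635 and 0.0617 without HF 2 of batch 2. Cldn2, a claudin that forms pores for cations in tight junctions, fell by 0.55 ± 0.11 (adjusted p 0.01004) from a median of 213 CPM to 144 CPM without overlap in either batch. It was the 1 member called of 18 tight junction and barrier genes (5.56%, beside 4.90% of all genes lower). A p above the threshold does not show that a marker was equal in the groups.

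After 28 weeks on the low-fat diet, few genes separated HF-LF from LF samples. Between HF-LF and LF, 0 of 14385 genes were called (0%) by edgeR, 591 genes had an unadjusted p under 0.05, and the smallest adjusted p was 0.0883. DESeq2 called 6 genes, all lower in HF-LF (Acta1, Cebpb, Jund, Klf2, Scand1 and Snora7a), and limma voom with sample weights called Cebpb, Jund and Klf2. The 783 genes higher in HF-LF than in HF had medians of 0.39 between HF-LF and HF, -0.40 between HF and LF and -0.01 between HF-LF and LF. For the 705 lower genes these medians were -0.35, 0.37 and 0.02. Since each pair of comparisons shares a group of samples, the values are given side by side and no overlap was computed. Cebpb, a transcription factor of the early response that was chosen after its values had been seen, had a log2 fold change of -0.48 between HF-LF and LF and of -0.14 ± 0.09 between HF-LF and HF (adjusted p 0.277). For Klf2 these were -0.72 and 0.67, and for Acta1 -0.53 and 0.94, so that the median HF-LF level lay between the HF and the LF median in both.

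The batches differed in how many genes were called. In batch 1 alone 1 gene passed (Scd1), with 1566 genes at an unadjusted p under 0.05, and in batch 2 alone 1278 were higher and 806 lower, 14.5% of the genes tested. Between-sample spread was larger in batch 1, where the biological coefficient of variation was 0.158 against 0.102 in batch 2. No gene passed the test of a difference in the change between the batches (edgeR interaction, smallest adjusted p 0.641), and DESeq2 also called 0. At an unadjusted p under 0.05 in the edgeR test there were 1105 genes, beside 719 expected by chance. With few samples in each batch, a gene that did not pass may still differ.

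Directions were compared between the batches, which share no samples, although samples of the same mouse may lie in both. Of the 2080 genes called in batch 2 between HF-LF and HF that were tested in batch 1, 1835 (88.2%) had the same direction there, beside 69.8% of all genes. Of 1066 genes called between HF and LF in batch 2, 979 (91.8%) had the opposite direction between HF-LF and HF in batch 1, beside 70.1% of all genes. With the roles of the batches exchanged, 810 of 857 genes at an unadjusted p under 0.01 between HF and LF in batch 1 (94.5%) had the opposite direction between HF-LF and HF in batch 2, beside 75.8% of all genes. Across 14180 genes, which are not independent replicates, the log2 fold changes of HF-LF against HF in the batches had a Pearson r of 0.397.

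**Figure D4:**
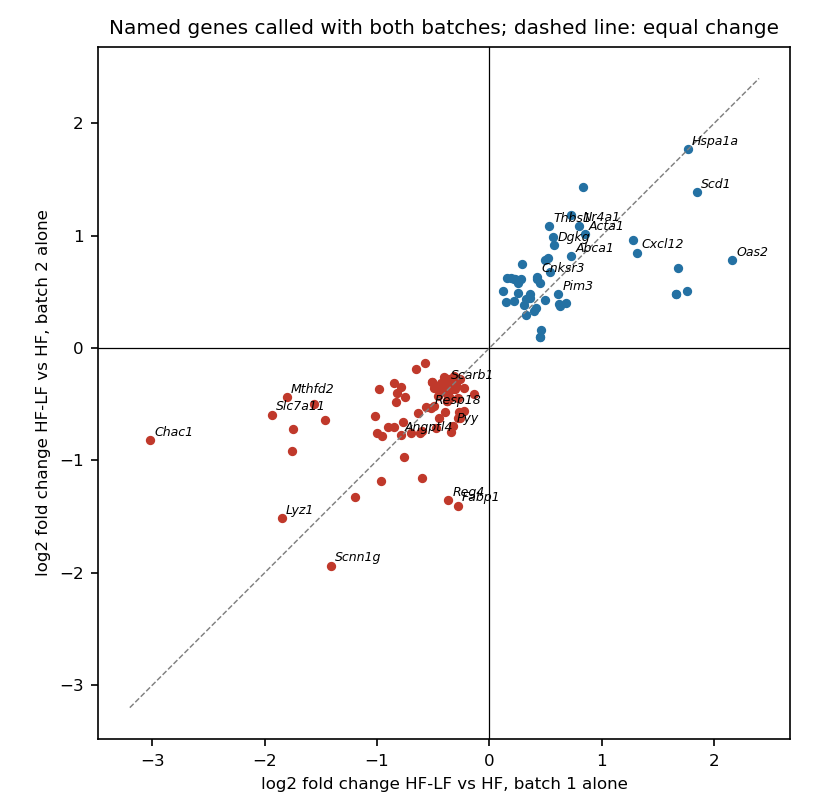
Log2 fold change between HF-LF and HF of the named genes called with both batches, in batch 1 alone (horizontal axis) and in batch 2 alone (vertical axis); each point is 1 gene and the dashed line marks equal change. Scd1 lies at 1.85 and 1.39 and Lyz1 at -1.85 and -1.51, while Chac1 lies at -3.02 and -0.82.

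Other measures differed between the groups besides the diet. HF-LF samples had fewer counted reads than HF samples, with a mean difference of -8245600 (2-sided exact permutation test within batches, p = 0.0449, smallest possible p 0.00102). The slope of log2 CPM on log2 transcript length, a measure of RNA and library quality, was higher in HF-LF samples by 0.0318 (exact p = 0.0418). The summed level of 10 smooth muscle markers was 92.6 to 127 CPM in HF and 111 to 190 CPM in HF-LF samples, a mean difference of 0.250 on the log2 scale (exact p = 0.0276), and 0 of the 10 were called. Most of that sum was Mylk and Smtn, which are not restricted to muscle. The 8 others (Acta2, Myh11, Des, Cnn1, Tagln, Actg2, Myl9 and Synm) together reached 0.568 to 11.7 CPM in HF and 2.15 to 57.5 CPM in HF-LF samples (exact p = 0.101). The sum of the 6 endothelial markers was 7.27 to 14.7 CPM in HF and 15.3 to 18.3 CPM in HF-LF samples, without overlap. Most of it was Vwf (5.04 to 8.04 and 6.12 to 11.2 CPM) and Pecam1 (1.54 to 6.65 and 4.78 to 9.84 CPM), each with overlap. Tek had medians of 0.412 CPM in HF and 0.589 CPM in HF-LF samples, and Kdr of 0.142 and 0.107 CPM. Cdh5 and Emcn were at 0.255 CPM or less, and 1 of the 4 tested members was called.

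When each sample's value of such a measure entered the fit, alternatives chosen after the data had been seen, fewer genes passed. With the summed smooth muscle markers 7 genes were higher and 4 lower, with the 8 restricted markers 125 and 57, and with the length slope 33 and 22. All of the 1488 DEGs had the same sign in each of these fits, and the median of the higher genes was 0.29, 0.33 and 0.28 and that of the lower genes -0.23, -0.28 and -0.22. The DEGs were chosen by their change in the same samples, so the shared sign is no independent evidence. Primary response genes numbered 0, 8 and 1 in the 3 fits, in the order just given, at medians of 0.29, 0.37 and 0.32, beside 0.38 without a covariate. With the summed smooth muscle markers 26 of them were higher at an unadjusted p under 0.05. In all 3 fits edgeR called 0 histone, 0 S phase, 0 amino acid synthesis, 0 respiratory chain, 0 mitochondrial ribosomal, 0 proteasome and 0 interferon-stimulated genes. Histone genes then had medians of -0.35, -0.44 and -0.38, with 29, 50 and 41 lower at an unadjusted p under 0.05, and S phase genes -0.29, -0.36 and -0.40, with 13, 27 and 29. The medians of the ATF4, serine and amino acid synthesis genes shrank from -0.30 to -0.15, -0.20 and -0.24, with 5, 12 and 19 lower at an unadjusted p under 0.05, and those of proteasome genes from -0.22 to -0.11, -0.17 and -0.10. Lower genes of folding in the endoplasmic reticulum numbered 0, 3 and 0, higher feedback regulators 0, 1 and 0, and lower enteroendocrine genes 1, 4 and 1. These measures move with the diet groups, and their part in the results was not tested beyond these fits. In every one of the 3, 10 genes were called: Abca1, Acta1, Cnksr3, Dgkg, Pim3 and Scd1 were higher and Lyz1, Pyy, Resp18 and Scarb1 lower in HF-LF samples. The log2 fold change of Scd1 ran from 1.52 to 1.73 over the fits that left out 1 sample each.

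**Figure D5:**
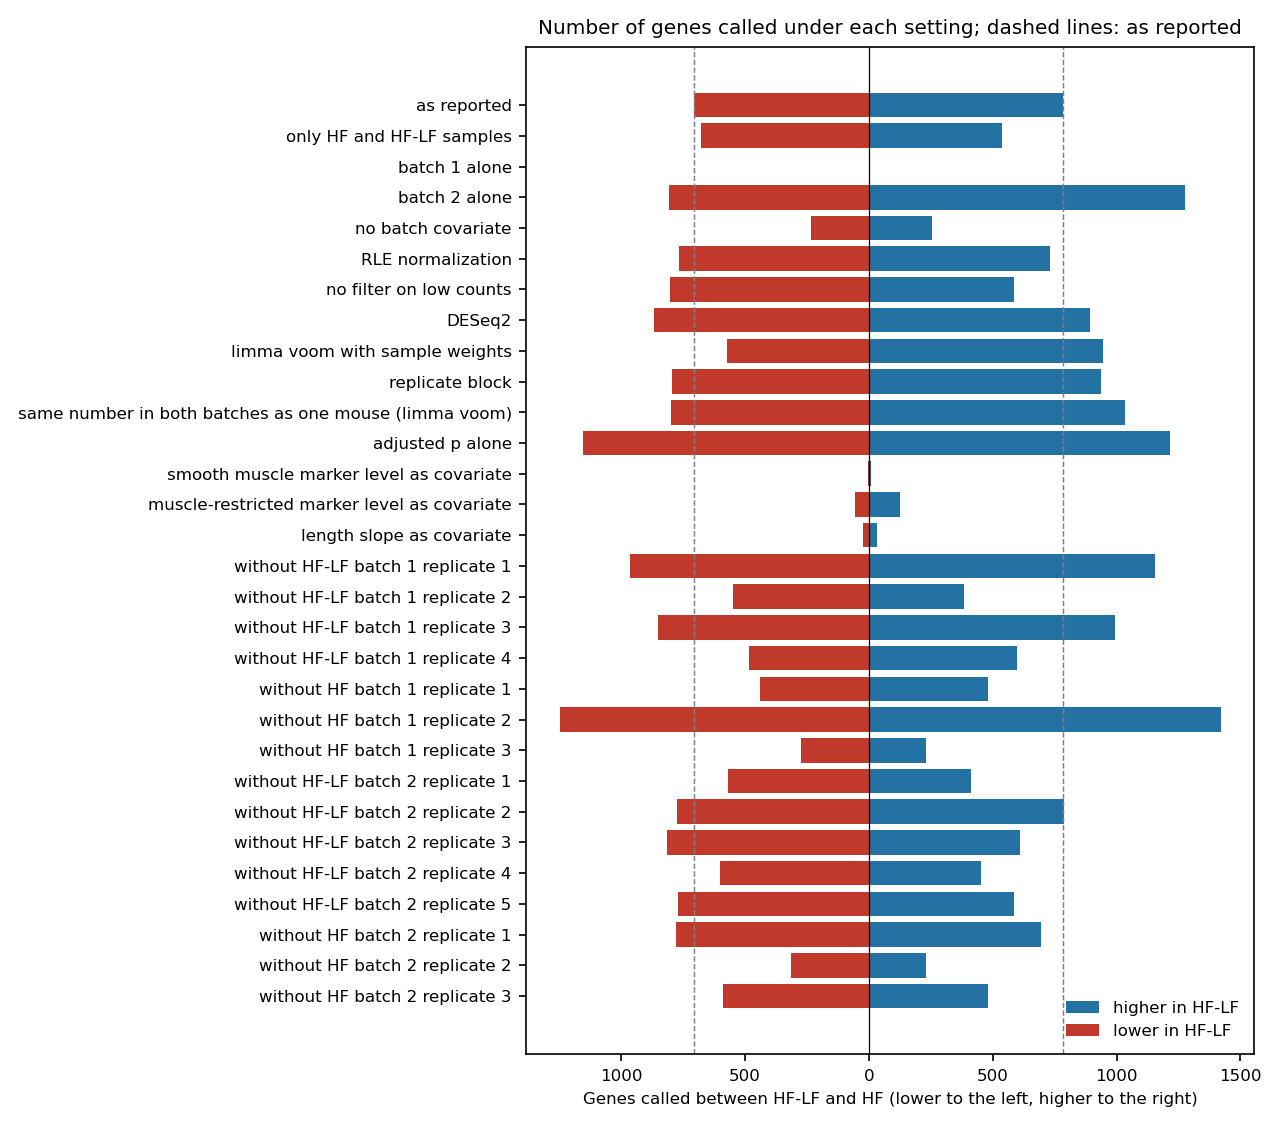
Number of genes called higher (to the right) and lower (to the left) in HF-LF than in HF samples under each setting; dashed lines mark the 783 and 705 genes reported. Counts are lowest in batch 1 alone (1 and 0), followed by the fit with the summed smooth muscle markers as a covariate (7 and 4), and, for the total among fits without 1 sample, without HF 3 of batch 1 (229 and 272).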

How the data were processed

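RNA was measured in 23 samples of colonic epithelium, and the deposited file holds counts of reads per gene that the authors made: read pairs were filtered by mean base quality, trimmed with cutadapt 1.2.1, aligned to mm10 with STAR 2.5 and counted with featureCounts 1.5.0-p1. The strand and multiple-mapping settings are not given in the sources used here. Groups and batches were taken from the labels. Counts were fitted in edgeR 4.0.16 (R 4.3.3) with TMM factors, filterByExpr and the quasi-likelihood F test. All 23 samples shared the fit, with diet and batch as terms. Calls required a change of over 1.2-fold and a p below 0.05 after Benjamini-Hochberg adjustment. Symbols found at several loci (369, with 0.0250% of counts) were not named. Reads per sample and the precision they give are in the report.

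Alternatives were DESeq2 1.42.0, its size factors in edgeR, limma 3.58.1 voom with sample weights, no filter on low counts, no batch term, each batch alone, HF and HF-LF samples only, adjusted p alone, a block for replicate number, samples of the same number in both batches as 1 mouse, and each sample left out. The fits with smooth muscle or length covariates were chosen after the data had been seen. On simulated counts the fit was checked for recovery of known changes.

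The comparison, gene lists and rules were chosen with earlier results of these data known. Named genes were the 10 largest rises, 10 largest falls and 10 smallest adjusted p among called genes with the same sign in both batches and a mean of at least 1 CPM, up to 4 called members of each list, and a set of genes chosen by name; others are named as list members or as chosen after their values were seen. Some genes are not reported here. The cofactor Psmc3ip, which shares a name stem with the proteasome subunits, was left out of the proteasome list. CPM are TMM-normalised. CArG boxes were searched as CC, 6 bases of A or T, then GG, in RefSeq promoters of GRCm38.p6.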

Additional observations from a re-analysis of the deposited data

Results flagged for a closer look

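In 40 of 278 groups of values for HF or HF-LF samples, 1 sample lay apart from the rest of its group by Dixon's criterion. Chance alone does so in about 1 in 20 groups, and values of genes in the same sample are not independent. HF 3 of batch 1 accounted for 19, HF-LF 4 of batch 1 for 6 and HF-LF 1 of batch 1 for 5.

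HF 3 of batch 1 was the highest of the 6 HF samples in genes of amino acid and folate metabolism, at 14.8 CPM of Chac1, 38.0 CPM of Slc7a11, 44.0 CPM of Mthfd2 and 33.4 CPM of Psat1. It was also highest in genes of replication and protein turnover, at 51.8 CPM of Mcm2, 18.6 CPM of Prim1, 96.0 CPM of Psmd14 and 174 CPM of Uqcrq. Genes of lipid and bile acid handling stood at 49.4 CPM (Creb3l3), 184 CPM (Elovl7), 398 CPM (Acsm3) and 95.2 CPM (Slc51b) there. The same sample was highest in Cd74, the invariant chain of MHC class II (188 CPM), Fkbp5 (547 CPM), Aldh1a3 (5.09 CPM), Alpi (74.4 CPM) and Dusp4 (7.75 CPM), and lowest in Acaa1a (61.3 CPM) and Lgr5 (10.3 CPM).

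HF-LF 4 of batch 1 was the highest of the 9 HF-LF samples in 6 genes that interferon induces: Ddx60 (169 CPM), Oas2 (13.975 CPM), Oas3 (43.3 CPM), Oasl2 (81.0 CPM), Rsad2 (25.5 CPM) and Stat2 (57.7 CPM). HF-LF 1 of batch 1 was highest in Elovl7 (140 CPM), Hist1h2ah (1.93 CPM), Pgam1 (61.0 CPM), Psmd14 (69.3 CPM) and Tpm4 (144 CPM). HF-LF 2 of batch 1 was highest in the summed smooth muscle markers (190 CPM), Egr3 (4.97 CPM) and Plcb2 (7.45 CPM). HF 2 of batch 2 was the highest HF sample in Reg4 (1033 CPM) and H2-Q10 (2.26 CPM), and HF 2 of batch 1 in Oas2 (1.48 CPM). HF-LF 3 of batch 2 was highest in both subunits of the bile acid exporter, Slc51a (135 CPM) and Slc51b (47.4 CPM). HF-LF 1 of batch 2 was highest in Cd74 (56.9 CPM) and HF-LF 3 of batch 1 in Fabp1 (0.385 CPM).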

How the results depend on the processing

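The 1488 DEGs were chosen by their change in these samples, and all kept their sign under each alternative that used all samples. The number called depended on the setting. It was 1 higher and 0 lower in batch 1 alone, 1278 higher in batch 2 alone, 256 and 232 without the batch term, 1215 and 1156 by adjusted p alone, 7 and 4 with the smooth muscle covariate, 125 and 57 with its restricted form, and 33 and 22 with the length slope. Without 1 sample the higher genes ran from 229 to 1420 and the lower from 272 to 1249. Between HF-LF and LF the count of 0 became 1 in batch 2 alone, 6 with DESeq2, 3 with limma voom, 4 with equal numbers as 1 mouse, 1 with the length slope and 0 to 3 without 1 sample. With a replicate block 938 genes were higher and 796 lower, 1 differed between HF-LF and LF, and the interferon-stimulated genes called went from 5 to 1. The labels do not say whether the numbers pair the samples. Of 6 correlations between HF and HF-LF samples of the same number 5 were over 0.1, 3 of them in batch 1, and the other was -0.084 in batch 2, and 5 of 6 HF samples correlated best with their own number. Directions changed in 5 genes that were not called, and the cause was not tested. Ascl2 had log2 fold changes of 0.29 in batch 1, 0.018 with equal numbers as 1 mouse, 0.016 with the length slope and 0.032 without HF 2 of batch 2. Car1 had 0.35 in batch 1, 0.14, 0.0018 and 0.19 with the 3 covariates, and 0.0015 to 0.028 without 1 of 3 samples (0.016 without HF-LF 4 of batch 2). Ccnd2 had -0.17 in batch 1 and -0.0017 with the length slope. Cd74 had 1.08 in batch 2, 0.23 with limma voom and 0.47 without HF 3 of batch 1. Mki67 had 0.051 in batch 2, 0.042 with limma voom and 0.027 without HF 3 of batch 1. Over named genes the fits without 1 sample ranged from -2.29 (Chac1) to 1.95 (Hspa1a). Cross-batch shares of 91.8% and 88.2% ran from 83.7 to 93.2% and from 77.1 to 92.4% without 1 sample. Levels under the floor of 3 counts, up to 0.0943 CPM, were not detectable at this depth.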

Other observations

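Of 19 circadian clock and output genes, 5 (Nr1d1, Per3, Rora, Per1 and Cry2) were higher and 0 lower (26.3%, beside 5.44% of all genes), at a median of 0.19. Nr1d1, a repressor within the clock, rose by 0.66 ± 0.18 (adjusted p 0.0211), from 26.4 to 89.3 CPM in HF to 58.9 to 181 CPM in HF-LF samples, with no overlap in batch 2 and overlap in batch 1. Without HF 3 of batch 1 or HF 2 of batch 2 its adjusted p was 0.0565 and 0.0619, and 1 clock gene was called in the former fit and 0 in the latter. With each of the 3 covariates edgeR called 0, with 5, 6 and 4 higher at an unadjusted p under 0.05. Those 3 fits called 11, 182 and 55 of all 14385 genes, so few calls would be seen in any list of this size. The hour at which each sample was collected is not given in the sources used here, so diet and hour cannot be told apart. Per1 belongs to the primary response list as well.

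Among 14 bile acid sensing and transport genes, Slc51a and Slc51b, the subunits of the basolateral bile acid exporter, were lower, while Vdr, a nuclear receptor that binds vitamin D and lithocholic acid, and Abcc3, an export pump, were higher. Each pair is 14.3% of the list, beside 4.90% lower and 5.44% higher over all genes. Slc51a fell by 0.76 ± 0.21 (adjusted p 0.0208) and Abcc3 rose by 0.31 ± 0.09 (adjusted p 0.0230). Without HF 3 of batch 1, 0 of the 14 were called by edgeR, with adjusted p of 0.0787 for Slc51a, 0.228 for Slc51b, 0.0741 for Vdr and 0.0783 for Abcc3. Of 46 xenobiotic and redox defense genes, 6 were lower (13.04%, beside 4.90% of all genes), among them Gpx2, a glutathione peroxidase of the gut epithelium (-0.54 ± 0.16, adjusted p 0.0258), and without the same sample Gpx2 had an adjusted p of 0.0705. In that fit edgeR called 0 of the 46, beside 501 genes in all, with 10 of the 46 lower at an unadjusted p under 0.05. With each of the 3 covariates it called 0 of the 46, beside 11, 182 and 55 of all 14385 genes.

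MHC class II genes, 0 of 10 called by edgeR, had a median of -1.24 in batch 1 and 0.64 in batch 2. The summed small intestine markers were at 128 to 216 CPM in HF and 68.9 to 88.9 CPM in HF-LF samples of batch 2, and overlapped in batch 1 (51.9 to 72.9 and 37.3 to 96.7 CPM). The only called member was Sis, sucrase-isomaltase, which fell by 0.43 ± 0.13 (adjusted p 0.0337). Muc4, a membrane mucin, rose by 0.52 ± 0.15 (adjusted p 0.0237) without overlap in either batch. Tfrc, the transferrin receptor, fell by 0.45 ± 0.14 (adjusted p 0.0372), and its adjusted p was 0.112 without HF 3 of batch 1.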
